A study of Homo sapiens with 14 samples.

Results

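The inflammatory cytokine and chemokine genes of LX-2 cells were examined at the level of chromatin, as 10 genes of 20136 protein-coding genes. The members were IL6, IL11, LIF, IL1A, IL1B, CXCL8, CXCL1, CXCL2, CCL2 and CCL5, and the window of each was its hg19 GENCODE gene body with 20 kb added on each side. Every peak of the 14 deposited lists that touched a window was taken, and no value measured in these data entered that rule. The members themselves were chosen with earlier results of these data known. LX-2 is an immortalised human hepatic stellate cell line, here wild type, and the cells had been grown for 2 days on matrix that was soft (sample titles with 2K) or stiff (40K). CUT&Tag, in which an antibody directs the Tn5 transposase to a chromatin target, had been run against phosphorylated JUN (p-JUN), H3K4me3, H3K27me3 and H3K27ac. The first 3 targets had 2 replicates on each matrix, and H3K27ac had 1 merged list per matrix, so H3K27ac has no replicate check. The study's methods call the replicates of its sequencing experiments biological, and the labels do not say whether these came from separate cultures. The p-JUN libraries labelled stiff carry TCP in their titles, the study's abbreviation for tissue culture plastic, so that the p-JUN contrast is between libraries labelled soft and libraries labelled stiff. The antibody of the acetylation libraries is labelled H3K27ac3 and is called H3K27ac here.

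Stellate cells are the collagen-producing cells of the liver, and once activated they also secrete cytokines and chemokines. IL6, IL11 and LIF are cytokines that signal through the shared receptor subunit gp130, encoded by IL6ST. IL1A and IL1B encode the IL-1 family ligands that open inflammatory cascades through the IL-1 receptor, CXCL8, CXCL1 and CXCL2 encode chemokines that draw neutrophils, and CCL2 and CCL5 encode chemokines that draw monocytes and T cells. Promoters of many of these genes are known to hold sites for AP-1, the dimer to which JUN belongs, and for NF-kB. H3K4me3 marks promoters that are active or poised, H3K27ac marks active promoters and enhancers, and H3K27me3 marks chromatin silenced by Polycomb.

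The letters below come from the GRCh37 assembly, the sequence of hg19, and are written on the strand of the gene. The CXCL8 promoter is shown because the H3K4me3 calls there differed between the matrices, the IL6, IL11 and IL1A promoters because a p-JUN region lay on them in every library, the CXCL1 and CXCL2 promoters because they are close copies of each other, and the summit sequence because it belongs to the p-JUN region of CCL2. Promoter stretches were taken from the 200 bases before the canonical start site and stop where an annotated exon begins, and the summit sequence spans 101 bases. Capitals mark AP-1 letters (TGACTCA or TGAGTCA) and NF-kB letters (GGGRNNYYCC), on either strand. In these letters R is A or G, Y is C or T and N is any base.
CXCL8 promoter, chr4:74606086-74606235, plus strand: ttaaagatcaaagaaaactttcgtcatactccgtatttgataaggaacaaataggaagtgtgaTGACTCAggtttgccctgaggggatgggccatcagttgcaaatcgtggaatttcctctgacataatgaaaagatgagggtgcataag
IL6 promoter, chr7:22766619-22766765, plus strand: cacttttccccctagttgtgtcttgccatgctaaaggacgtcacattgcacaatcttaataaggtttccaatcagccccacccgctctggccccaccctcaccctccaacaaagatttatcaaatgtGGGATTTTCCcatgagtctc
IL11 promoter, chr19:55881832-55882031, minus strand: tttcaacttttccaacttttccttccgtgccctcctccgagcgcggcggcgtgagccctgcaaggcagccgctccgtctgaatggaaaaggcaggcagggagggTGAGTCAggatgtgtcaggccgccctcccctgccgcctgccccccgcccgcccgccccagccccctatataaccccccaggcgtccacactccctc
IL1A promoter, chr2:113542071-113542270, minus strand: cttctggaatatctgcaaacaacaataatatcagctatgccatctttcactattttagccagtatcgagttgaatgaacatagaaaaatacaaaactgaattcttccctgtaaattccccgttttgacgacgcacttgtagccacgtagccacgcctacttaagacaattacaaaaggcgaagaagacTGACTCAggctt
CXCL1 promoter, chr4:74734910-74735109, plus strand: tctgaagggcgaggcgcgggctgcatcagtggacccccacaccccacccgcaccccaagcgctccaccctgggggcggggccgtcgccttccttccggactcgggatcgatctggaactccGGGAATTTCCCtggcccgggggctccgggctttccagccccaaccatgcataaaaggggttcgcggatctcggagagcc
CXCL2 promoter, chr4:74964914-74965112, minus strand: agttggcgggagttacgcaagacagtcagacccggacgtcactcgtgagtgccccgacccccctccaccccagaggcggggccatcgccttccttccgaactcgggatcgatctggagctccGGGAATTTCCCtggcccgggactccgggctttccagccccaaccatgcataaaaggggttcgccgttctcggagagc
CCL2 upstream p-JUN summit, chr17:32579884-32579984, plus strand: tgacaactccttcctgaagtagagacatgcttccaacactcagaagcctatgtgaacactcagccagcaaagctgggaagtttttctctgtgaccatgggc

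AP-1 letters stood in the 200 bases before the start site of 3 of the 10 genes, IL11, IL1A and CXCL8, where 2.50% of 19515 coding promoters of this length held them. The IL11 match began at -96, the CXCL8 match at -137 and the IL1A match at -12 from the start site. NF-kB letters stood in 5 of the 10 promoters, against 9.46% of all, namely IL6 at -73, CXCL1, CXCL2, CCL2 and CCL5. Near matches, such as ggaatttcct in the CXCL8 stretch printed above, were not counted. C/EBP letters (TTGCNNAA) were in 3 promoters, with IL6 at -155, against 5.39% of all. Neither CRE letters (TGACGTCA), which 2.31% of all promoters held, nor TEAD letters (GGAATG), which 7.39% held, were found in these 10 stretches. A match is a description of letters and was not read as a bound site. The CXCL1 and CXCL2 promoters shared an unbroken run of 42 bases, and the next longest run shared by any pair of members was 11 bases. A read pair lying wholly within the shared run could belong to either gene. Likeness elsewhere in the windows of these genes was not examined, nor were the length and mapping of the reads.

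The p-JUN and H3K4me3 lists were close in length, and the lists of the other marks were not. The p-JUN lists held 48163 to 54168 peaks, the H3K4me3 lists 18096 to 18857 and the H3K27me3 lists 6974 to 19843, and the H3K27ac lists held 18238 peaks on soft and 13322 on stiff. Every fold and p-value pair of the narrow lists corresponded to a whole number of reads or fragments piled at the summit, and the median pileup was 60 to 64 in the p-JUN libraries and 26 and 27 in the H3K27ac lists. In the H3K4me3 libraries it was 121 and 142 on soft against 153 and 207 on stiff, so that the stiff H3K4me3 libraries were the deeper ones. For cell type, H3K4me3 within 1 kb of a start site in all 4 libraries was counted at marker genes. Of 13 stellate and myofibroblast markers 7 had it, a share below the 61.7% of all protein-coding genes. These were ACTA2, COL1A1, PDGFRB, SPARC, TAGLN, THY1 and VIM, while COL1A2, COL3A1, PDGFRA, DES, LUM and DCN did not have it in all 4. Such H3K4me3 stood at 0 of 6 hepatocyte markers and 1 of 8 leukocyte markers (CD14, while PTPRC and CD68 had no call). It also stood at 2 of 4 cholangiocyte markers (EPCAM and SOX9) and 1 of 4 endothelial markers (KDR).

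p-JUN lay close to nearly all of these genes, in libraries labelled soft and in those labelled stiff. A p-JUN peak was called in the window in all 4 libraries for 9 of the 10 genes, all but CXCL1, where 74.2% of protein-coding genes had one. Within 1 kb of a start site the count was 7 of 10, namely IL6, IL11, IL1A, IL1B, CXCL8, CXCL2 and CCL5, against 37.5% of protein-coding genes. The windows together held 31 and 30 p-JUN peaks on soft and 29 and 35 on labelled stiff, a log2 ratio of 0.07 that lay within the spread between replicates. Without labelled stiff replicate 2 the ratio was -0.07. The median window held 3 peaks in each soft library and 3.5 and 4 in the libraries labelled stiff, where the median over all genes was 2 throughout. Merging the peaks gave 36 regions, of which 27 were listed by each of the 4 libraries, against 65.8% of all p-JUN regions. No region was listed on soft by both replicates without a labelled stiff call, a class that held 1.74% of all regions, and 2 were called in both labelled stiff and in neither soft, a class that held 2.75%.

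**Figure D1:**
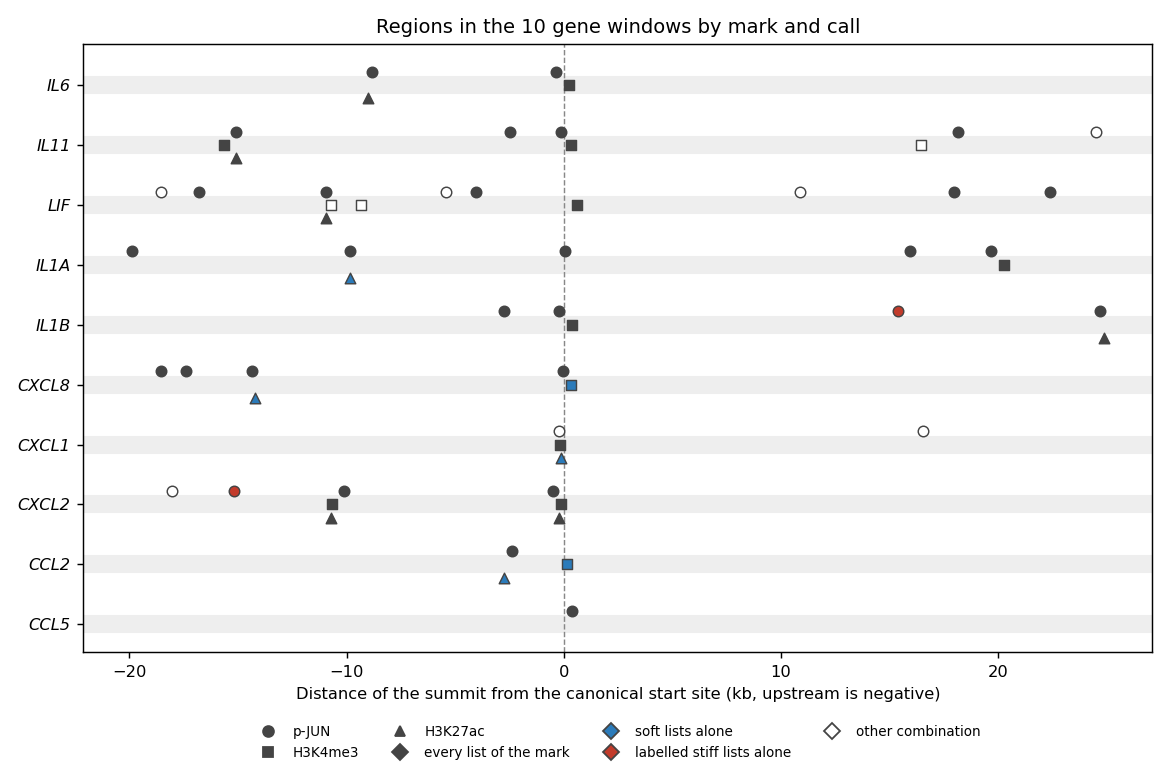
Each symbol is 1 merged region at the distance of its summit from the canonical start site (kb, horizontal axis), with a row for each gene, circles for p-JUN, squares for H3K4me3 and triangles for H3K27ac. Of the 36 p-JUN regions 27 were listed by each library, the calls on soft alone (blue) are 2 H3K4me3 and 4 H3K27ac regions, and the calls on labelled stiff alone (red) are 2 p-JUN regions.

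Among the gp130 cytokines, IL6, the acute-phase cytokine, had 2 p-JUN regions. The promoter region (chr7:22766067-22767301), whose summit lay at -366 bp in an intron of a longer IL6 transcript, had folds over background of 8.65 and 9.22 on soft and 9.19 and 9.66 on labelled stiff. The upstream region at -8839 bp (chr7:22757627-22758235), in an intron of the neighbouring gene STEAP1B, had folds of 8.79 and 6.54 on soft and 7.01 and 8.19 on labelled stiff. Neither IL6 region stood apart from the spread between replicates, and the promoter region was called with more pileup, 147 to 171, than the upstream region, 26 to 42.

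IL11, a profibrotic cytokine of the same family, carried the most heavily read promoter region of the 10 genes. Its summit at -135 bp (chr19:55881464-55882422) had a pileup of 590 and 533 on soft and 510 and 598 on labelled stiff, with folds of 6.01, 6.29, 6.29 and 6.44 in the same order. These folds were below the median of each p-JUN list, 7.88 to 8.32, so that the high pileup went with a high background. The AP-1 letters printed above for IL11 fell within 50 bp of this summit. A partner region at -2472 bp, between genes, had pileups of 497 to 561, and it too held AP-1 letters near its summit. No other p-JUN region of IL11 held such letters within 50 bp of its summit. The groups overlapped in fold at the promoter, and at the partner region the folds were 5.66 and 5.78 on soft and 6.58 and 5.79 on labelled stiff, which touch without overlapping.

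LIF, which also signals through gp130, had p-JUN in its window without a p-JUN call within 1 kb of its start site. Its highest region lay upstream, between genes, with pileups of 485 and 415 on soft and 392 and 506 on labelled stiff and folds of 10.4, 10.3, 10.3 and 11.5. Between 97.0% and 98.2% of the p-JUN peaks of each library had a lower -log10 q than this region. The region at -16799 bp falls in an untranslated exon of OSM, which encodes oncostatin M, another gp130 cytokine, and had folds of 6.31 and 7.64 on soft and 7.24 and 7.46 on labelled stiff. The 3 other LIF regions called in every library had folds of 3.34 to 7.25, and 3 further regions were each called in 1 library. Of the former, the region downstream of LIF at 22408 bp had folds of 4.02 and 4.22 on soft and 3.61 and 3.59 on labelled stiff, without overlap, with a log2 difference of -0.24, an SE of 0.10 and an adjusted p by limma of 0.53.

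Both IL-1 genes had p-JUN on the promoter and at a distance. At the IL1A promoter (chr2:113541592-113542326, summit at 58 bp inside the gene), the folds were 9.58 and 8.70 on soft and 11.2 and 10.6 on labelled stiff. The labelled stiff values lay above the soft values there without overlap, but limma, fitted to the log2 folds of all 40433 p-JUN regions called in every library, gave a log2 difference of 0.21 with an SE of 0.11 and an adjusted p of 0.62. The highest IL1A region lay at -19883 bp, with folds of 12.5, 12.8, 12.6 and 15.0 in the order soft 1, soft 2, labelled stiff 1 and labelled stiff 2. At IL1B the promoter region at -194 bp had folds of 5.43 and 4.53 on soft and 4.75 and 5.64 on labelled stiff. The region at -2766 bp had higher folds of 9.04 and 11.03 on soft and 8.93 and 10.002 on labelled stiff. A region downstream of IL1B at 15385 bp (chr2:113578866-113579475), in an intron of a noncoding gene, was listed in the 2 labelled stiff libraries alone, with folds of 5.21 and 6.27 and pileups of 28 and 36.

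**Figure D2:**
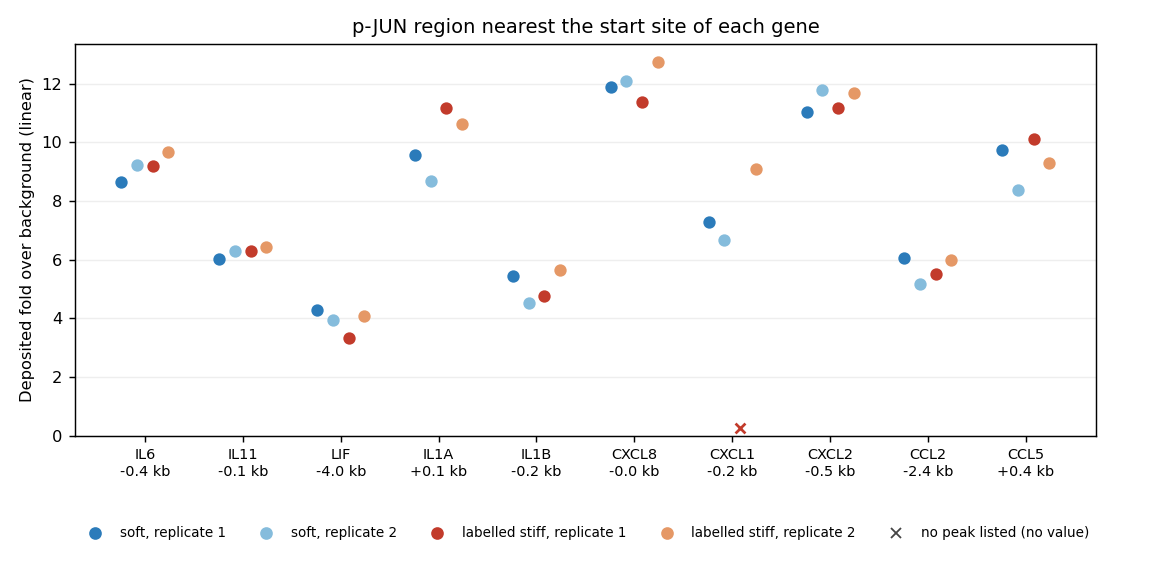
Deposited fold over background (linear vertical axis) of the p-JUN region nearest the start site of each gene, with 1 point for each of the 4 libraries and the distance of the summit under the name. A cross means that no peak was listed and stands for no value. The CXCL8 and CXCL2 points lie between 11.04 and 12.7, and soft and labelled stiff points interleave at most genes.

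The neutrophil chemokines lie in one cluster on chromosome 4. CXCL8, which encodes interleukin-8, had a promoter region at -26 bp (chr4:74605886-74606484) with folds of 11.9 and 12.1 on soft and 11.4 and 12.7 on labelled stiff, among the highest of the promoter regions. It also had 3 regions between genes at -18522, -17395 and -14333 bp. The first of these (chr4:74587387-74588128) had folds of 7.003 and 7.15 on soft and 5.94 and 5.97 on labelled stiff. These values did not overlap, the log2 difference was -0.29 with an SE of 0.10, and the adjusted p by limma was 0.46. The fold was higher on soft by more than the spread within either pair, but the difference did not pass the threshold over all regions.

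CXCL1 was the least steady of the members. Its promoter region at -215 bp (chr4:74734132-74735292) had folds of 7.30 and 6.67 on soft and 9.08 in labelled stiff replicate 2, and it was not listed in labelled stiff replicate 1. A second CXCL1 region at 16548 bp was listed in soft replicate 2 and in labelled stiff replicate 2, each with a pileup of 17. CXCL2, the close copy of CXCL1, had its promoter region at -503 bp (chr4:74964693-74965771) in every library, with folds of 11.04 and 11.8 on soft and 11.2 and 11.7 on labelled stiff. Its region at -10114 bp (chr4:74974635-74975975) was the larger by reads, with pileups of 445 and 411 on soft and 350 and 437 on labelled stiff. A CXCL2 region at -15191 bp, in an intron of MTHFD2L, was the other region listed on labelled stiff alone, with folds of 2.86 and 2.26. Of the other chemokine genes of the cluster, CXCL3 had a promoter p-JUN call in 4 libraries, CXCL5 in 3, and CXCL6, PF4 and PPBP in 0.

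The monocyte and T cell chemokines had 1 p-JUN region each. The CCL2 region lay at -2370 bp (chr17:32579573-32580140), between genes, with folds of 6.05 and 5.17 on soft and 5.51 and 5.998 on labelled stiff and pileups of 21 to 30. Its summit is the one printed above, and none of the 5 motifs searched was found within 50 bp of it. The CCL5 region lay inside the gene at 380 bp (chr17:34206869-34207554), in an intron, with folds of 9.75 and 8.38 on soft and 10.1 and 9.29 on labelled stiff.

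Over the 27 p-JUN regions called in every library, the median log2 difference between labelled stiff and soft was 0.00, beside -0.01 over all 40433 regions tested, and 14 of the 27 were above 0. This balance depended on the scale, since by summit pileup the median was -0.13 with 7 of 27 above 0, beside -0.05 over all regions. By limma with Benjamini-Hochberg adjustment over all regions, 0 of the 27 passed an adjusted p of 0.05, and 0.0% of all regions did so. At an unadjusted p under 0.05 the counts were 1 of 27, the CXCL8 region at -18522 bp, and 3833 of 40433. A fit to the recovered pileups in place of the folds also called 0 regions, with 4 of the 27 under an unadjusted p of 0.05 beside 9346 of 40433, or 23.1%. These were the CXCL2 and CXCL8 promoter regions, the CXCL8 region at -18522 bp and the LIF region at 22408 bp, each with less pileup on labelled stiff. The lowest adjusted p among them, 0.081, was that of the CXCL2 promoter, with pileups of 187 and 165 on soft and 121 and 137 on labelled stiff, while its folds overlapped. For counts of peaks in a single gene, an exact permutation test of 2 libraries against 2 cannot give a two-sided p below 0.33, which is what IL1B p-JUN gave.

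**Figure D3:**
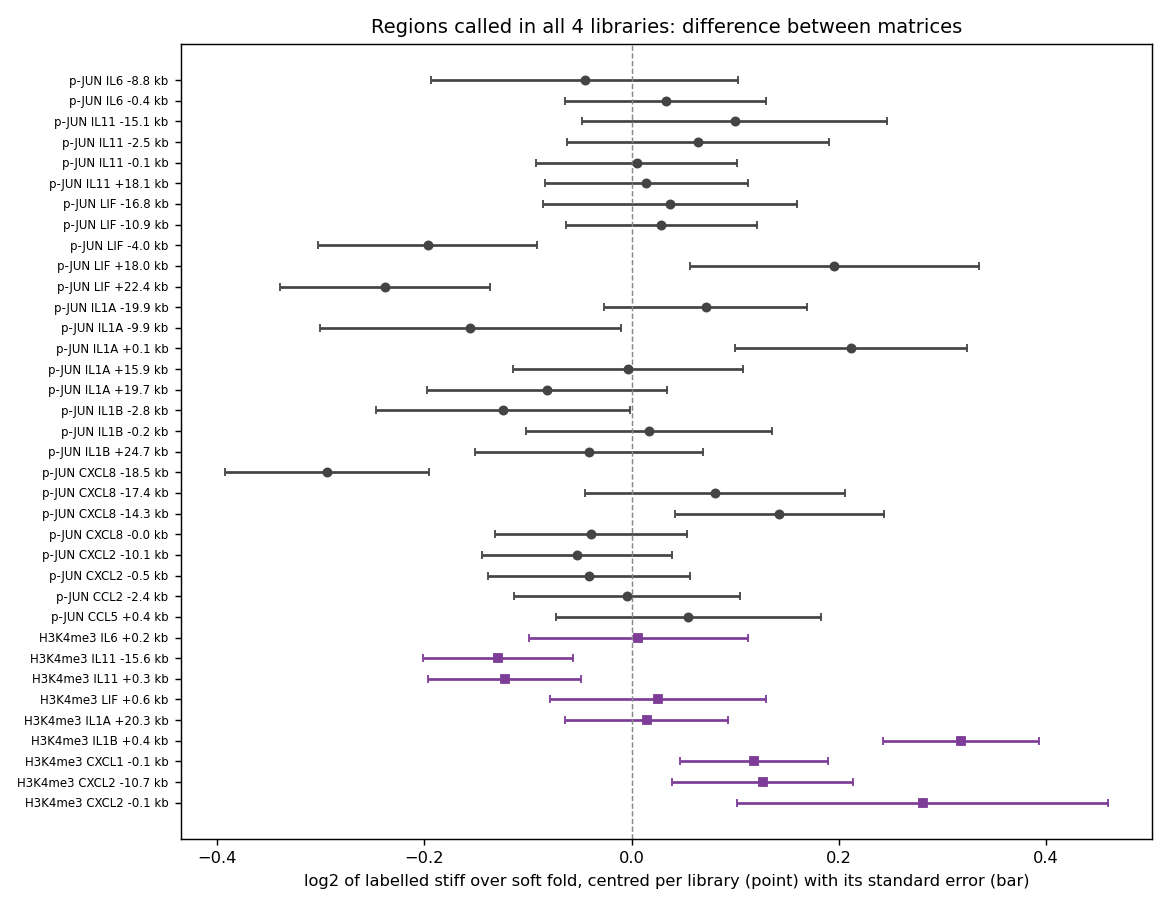
log2 of the labelled stiff over the soft fold, centred per library (horizontal axis), for each member region called in all 4 libraries, with circles for p-JUN, squares for H3K4me3 and bars for the standard error. The p-JUN values run from -0.29 at CXCL8 to 0.21 at IL1A, and IL1B has the highest H3K4me3 value, 0.32, which is -0.38 when pileups take the place of folds.

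AP-1 letters were found within 50 bp of 9 of 31 member p-JUN peaks in soft replicate 1 (29.0%, 95% Wilson interval 16.1 to 46.6), where 32.2% of all peaks of that library held them. In the other 3 libraries the shares were 23.3%, 27.6% and 28.6%, beside 32.4%, 32.8% and 30.6% of all peaks. These intervals cover counting error only, and the members' shares were close to those of all p-JUN peaks. By merged region, 9 of 36 held AP-1 letters, in 6 genes, and both regions listed on labelled stiff alone were among them. A merged region was read at a single summit. C/EBP letters stood near 4 of the 36 summits, NF-kB letters near 1, a region downstream of IL1B, TEAD letters near 2 and CRE letters near 0. By peak, C/EBP letters stood near 9.68% to 13.8% of the member peaks of a library, beside 4.32% to 4.54% of all peaks. NF-kB letters stood near 3.23% to 10%, beside 2.62% to 2.99%, and TEAD letters near 3.45% to 8.57%, beside 9.31% to 10.05%. CRE letters stood near 0%, beside 0.722% to 0.830%. The C/EBP, NF-kB and TEAD shares rest on 1 to 4 member peaks per library.

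H3K4me3 divided the 10 promoters into 3 groups. The promoters of IL6, IL11, LIF, IL1B, CXCL1 and CXCL2 had H3K4me3 within 1 kb of a start site in all 4 libraries, 6 of 10 genes against 61.7% of protein-coding genes. CXCL8 and CCL2 had it in both soft libraries and in neither stiff library, 2 of 10 against 0.174% of protein-coding genes, or 35 genes in all. In the opposite direction, both stiff and no soft library, the count was 0 of 10 against 0.204%. IL1A and CCL5 had no promoter H3K4me3 in any library, although both had promoter p-JUN in all 4. By merged region, 9 of 14 H3K4me3 regions in the windows were called in all 4 libraries, where 78.9% of all H3K4me3 regions were. The soft-only class held the same CXCL8 and CCL2 regions, 2 of 14 against 1.25% of all, and the stiff-only class held 0 of 14 against 1.77%.

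The CXCL8 region (chr4:74606303-74607374, summit at 333 bp inside the gene) had folds of 5.45 and 6.68 on soft, a mean of 6.06 ± 0.87 (SD, n = 2), with pileups of 16 and 23. The CCL2 region had folds of 8.14 and 6.83 on soft, a mean of 7.48 ± 0.92 (SD, n = 2), with pileups of 22 and 19. Both were low peaks of their lists. In soft replicate 1, 1.55% of all H3K4me3 peaks had a lower -log10 q than the CXCL8 peak and 13.5% a lower one than the CCL2 peak, and in soft replicate 2 the shares were 9.08% and 6.83%. The stiff lists, from the deeper libraries, held peaks down to a pileup of 11 and 13, but the fifth percentile of their pileups was 18 and 21. The median background at called regions was 16.4 and 22.3 on stiff and 13.4 and 15.6 on soft. Whether peaks as low as these would be listed on stiff was not tested. The level of a promoter that is not listed is not measured, so no fold can be given for the stiff side, and the exact permutation p was 0.33 for each gene. With a -log10 q of at least 10 asked of every peak, CXCL8 left this class and CCL2 stayed. With lists of equal length and with 2 kb in place of 1 kb, both genes stayed. Leaving out a library cannot take a gene out of this class, so that it is no check of these genes. The class itself grew from 35 protein-coding genes to 100 without soft replicate 1 (0.497%), 66 without soft replicate 2, 48 without stiff replicate 1 and 87 without stiff replicate 2.

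**Figure D4:**
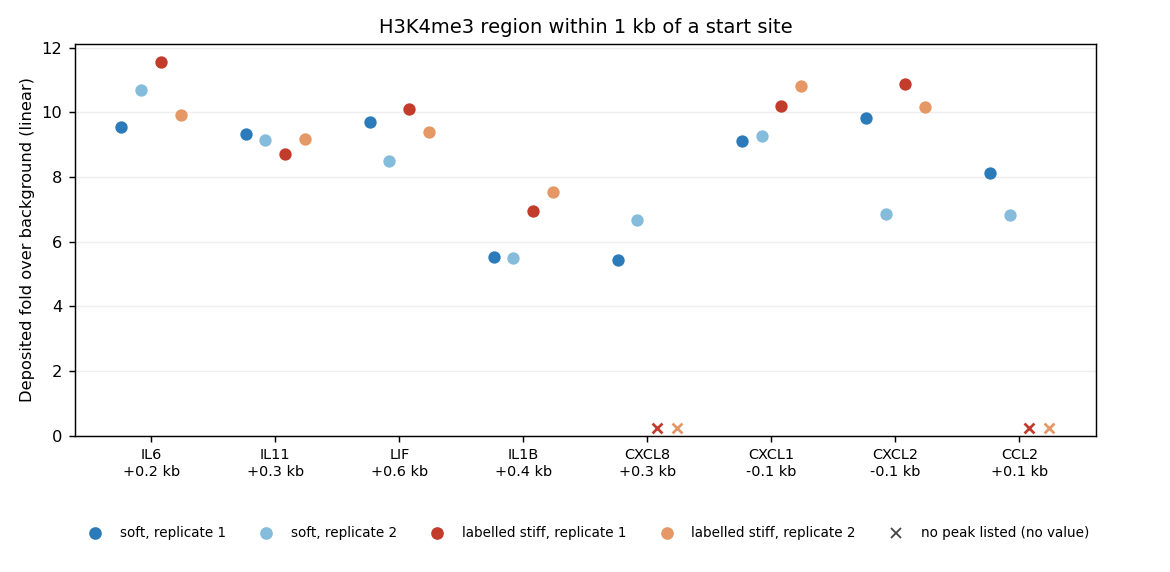
Deposited H3K4me3 fold over background (linear vertical axis) at the 8 members with a region within 1 kb of a start site, with 1 point for each library. Crosses mark libraries with no listed peak and stand for no value, and they fall on both stiff libraries at CXCL8 and CCL2 alone. At IL1B both stiff points, 6.94 and 7.55, lie above both soft points, 5.52 and 5.50.

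Where the mark was present throughout, IL1B had the highest difference in fold, which did not pass the test. Its promoter region (chr2:113592988-113594422) had H3K4me3 folds of 5.52 and 5.50 on soft and 6.94 and 7.55 on stiff, with pileups of 31 and 32 against 32 and 35. The stiff folds lay above the soft ones without overlap, with a log2 difference of 0.32, an SE of 0.08 and an adjusted p of 0.37 by limma. The sign turned on the scale of summit pileups, each library centred on its median, where the IL1B difference was -0.38 with an SE of 0.17 and an adjusted p by limma of 0.29. CXCL1 also had both stiff folds, 10.2 and 10.8, above both soft folds, 9.13 and 9.26, with a log2 difference of 0.12, an SE of 0.07 and an adjusted p of 0.63, and by pileup the difference was -0.01. At CXCL2 the soft replicates differed more from each other, with folds of 9.84 and 6.87, than the groups did, with 10.9 and 10.2 on stiff, and its pileups were 88 and 78 on soft and 129 and 168 on stiff, a centred log2 difference of 0.36 with an SE of 0.17 and an adjusted p by limma of 0.31. IL6 had folds of 9.55 and 10.7 on soft and 11.6 and 9.91 on stiff, and LIF had 9.70 and 8.51 against 10.1 and 9.39, both with overlap. IL11 had the widest promoter region, 2093 bp, with folds of 9.32 and 9.15 on soft and 8.71 and 9.17 on stiff. Of the 9 H3K4me3 regions tested, limma called 0 at an adjusted p of 0.05, and 0.0% of 16098 regions in all passed. At an unadjusted p under 0.05 there were 1 of 9, the IL1B promoter, and 1635 of all, and a fit to the recovered pileups called 10 regions in all and 0 members, with 3 of the 9 above 0 where 7 were by fold.

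Some H3K4me3 in the windows belonged to other genes or to no promoter. The region at 20292 bp from the IL1A start lies on the promoter of CKAP2L, and that at -15635 bp from IL11 lies on those of RPL28 and TMEM238. CXCL2 had H3K4me3 at -10653 bp, with folds of 6.27 and 7.08 on soft and 7.95 and 7.39 on stiff, where p-JUN and H3K27ac were called as well. LIF had 2 weak upstream H3K4me3 regions, each called in 3 libraries, and 1 of these overlapped its highest p-JUN region.

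H3K27ac was listed in 9 of the 10 windows on soft and in 5 on stiff, with 10 and 6 peaks. The windows of IL6, IL11, LIF, IL1B and CXCL2 had a peak in both lists, 5 of 10 against 47.7% of protein-coding genes. Those of IL1A, CXCL8, CXCL1 and CCL2 had a peak in the soft list alone, 4 of 10 against 11.9%, and the stiff list alone gave 0 of 10 against 2.97%. CCL5 had none in either list. The stiff list was the shorter, and both lists were then reduced to the same length by -log10 q. The soft-alone count became 3, with IL1A, CXCL8 and CXCL1, against 6.34% of protein-coding genes, while CCL2 had no peak in either. At equal length stiff alone gave 0 members against 7.95%. With a -log10 q of at least 10 the soft-alone windows were those of CXCL1, CXCL8, IL1A and LIF, against 14.1% of protein-coding genes. Stiff alone then gave 0 members against 3.26%. There was 1 merged library per matrix, so these are values of 2 lists and have no test.

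**Figure D5:**
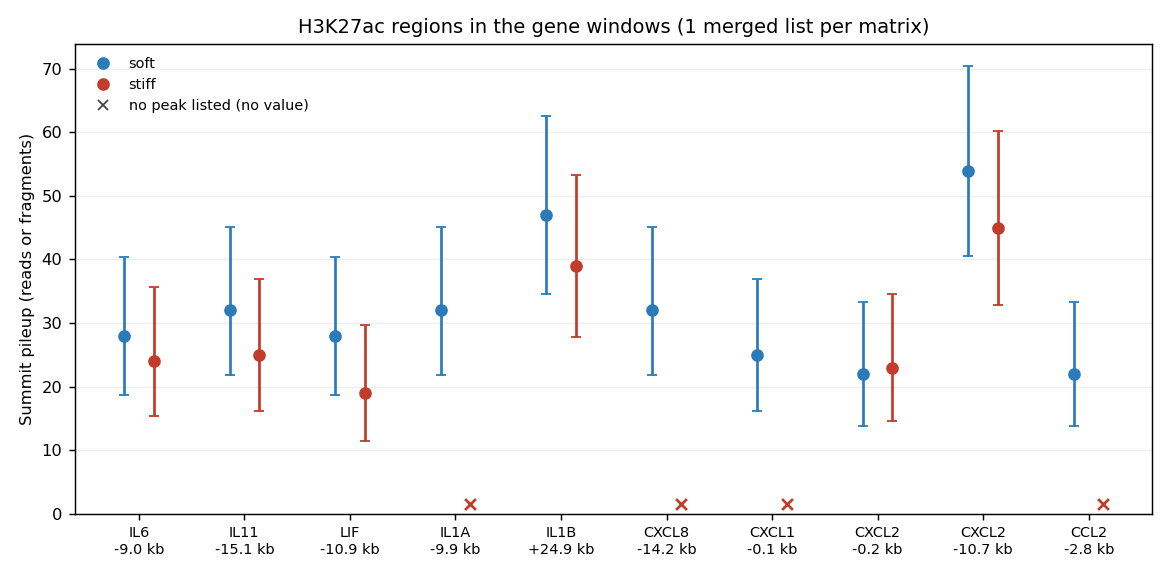
Pileup at the summit of each H3K27ac region in the windows (vertical axis, reads or fragments), with a point for the soft and the stiff list and bars for the exact 95% Poisson interval, which covers counting error only. Crosses mark regions not listed on stiff, at IL1A, CXCL8, CXCL1 and CCL2, and the bars of soft and stiff overlap at every region that was listed on both.

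The acetylated regions were mostly upstream of the genes. All 10 lay on p-JUN of at least 3 libraries, as did 83.8% of the 20403 H3K27ac regions in all. The IL1A region at -9854 bp (chr2:113551653-113552047) had a pileup of 32 on soft (95% Poisson interval 21.9 to 45.2), and the p-JUN region under it was called in all 4 libraries. CXCL8 had its region at -14217 bp (chr4:74591872-74592263), also with 32, and CCL2 at -2757 bp (chr17:32579338-32579823) with 22 (13.8 to 33.3). CXCL1 had H3K27ac on the promoter itself at -101 bp, with a pileup of 25 (16.2 to 36.9), where p-JUN was called in 3 libraries and H3K4me3 in 4. Of the regions in both lists, the CXCL2 region at -10727 bp was highest, with 54 on soft and 45 on stiff, followed by the IL1B region at 24879 bp with 47 and 39. IL6 at -9026 bp had 28 and 24, the upstream LIF region had 28 and 19, and the CXCL2 promoter had 22 and 23. For IL11 the acetylated region, with 32 and 25, was the RPL28 and TMEM238 promoter, and the IL11 promoter itself was in neither list. The lowest pileup in either H3K27ac list was 8. Of the member p-JUN peaks, 10 of 31 and 10 of 30 on soft overlapped H3K27ac of soft, beside 30.6% and 32.2% of all p-JUN peaks, and 6 of 29 and 6 of 35 on labelled stiff overlapped H3K27ac of stiff, beside 23.4% and 22.2%.

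H3K27me3 was listed in no window in any library, for 10 of 10 genes against 65.4% of protein-coding genes. With 50 kb on each side the count was still 0. The nearest H3K27me3 peak to any member was 68.0 kb from CCL2, and CXCL2 was farthest from one at the nearest, 464 kb.

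The 2 genes with soft-only H3K4me3 differed in p-JUN. CXCL8 had p-JUN on the promoter in every library, while CCL2 had none within 1 kb and its nearest region was the upstream one, on which the soft-only H3K27ac lay. Read as a pattern of promoter calls over the 14 lists, CXCL8 shared its pattern with 1 other protein-coding gene and CCL2 with 17, whereas IL6, IL11 and IL1B had one pattern, which each shared with 1899 other genes, those members included, and CXCL2 shared its own with 3423. Of 40 other cytokine and chemokine genes, CSF1 and CSF2 were the most like CXCL8, with the same call in 11 of 14 lists, and CCL11 and CCL13 the most like CCL2, with 12. CCL11 and CCL13 had no promoter peak in any list, and neither had CCL7 and CCL8. They match CCL2 only in lists where it too has no call, and ties were broken by alphabet. LIF had the same calls as CXCL12 and IL7 in all 14 lists, and CXCL2 the same as CLCF1 and CTF1. CSF1 and CXCL5 had the same call as IL6 and as CXCL1 in 13 lists, and CSF3 the same as IL1A and CCL5 in 13.

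In the wider pathway, 40 other ligand genes, 14 receptor genes and 23 regulator genes were counted in the same way. p-JUN was in the window in all 4 libraries at 30 of 40 ligand genes, 11 of 14 receptor genes and 21 of 23 regulator genes, against 74.2% of protein-coding genes, and within 1 kb of a start site at 9, 6 and 16, against 37.5%. H3K4me3 stood at the promoter in all 4 libraries at 11 of 40 ligand genes, 7 of 14 receptor genes and 22 of 23 regulator genes, against 61.7%. Soft-only and stiff-only promoter H3K4me3 was found at 0 genes of the 3 lists, against 0.174% and 0.204%. H3K27ac was in the window in the soft list alone at 3 ligand, 0 receptor and 5 regulator genes, against 11.9%, and in the stiff list alone at 1, 0 and 2, against 2.97%. The highest p-JUN folds in soft replicate 1 were those of CXCL3 (17.3), IL18 (16.7) and IL15 (16.3) among ligands, IL1RAP (17.8), IL1R1 (16.4) and OSMR (14.1) among receptors, and TRAF6 (17.2), NFKB1 (12.6) and ZC3H12A (12.3) among regulators. IL1RAP and IL1R1 encode the 2 subunits of the IL-1 receptor, and CXCL3 is a further close relative of CXCL1 and CXCL2.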

How the data were processed

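CUT&Tag fragments of LX-2 cells had been trimmed with Trim Galore, aligned to hg19 with Bowtie2 and handled with Picard per the labels, and peaks had been called by the authors with MACS2, with versions and options not given in the sources used here. The deposited lists give for each peak a linear fold over background (a ratio), the -log10 of its p-value and q-value, a display score and, in the narrow lists (p-JUN, H3K4me3, H3K27ac), the summit as an offset from the peak's start. H3K27me3 lists are broad, and the H3K27ac lists were deposited as merged over samples. The lowest -log10 q was about 5.0 in the narrow lists and 1.3 in the broad ones, so a promoter without a peak has no measured level.

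Peaks on the 24 chromosomes were placed on GENCODE 44 gene models lifted to GRCh37, a window being the gene body with 20 kb on each side and a promoter call a peak within 1 kb of a start site of a coding transcript. The members and all gene lists were chosen with earlier results of these data known. Peaks of a mark sharing 1 bp were merged into regions. limma 3.58.1 in R 4.3.3 was run on log2 folds of regions called in all 4 libraries, centred on each library's median, with Benjamini-Hochberg adjustment over all regions and a threshold of 0.05. On data simulated for the p-JUN regions, with the same spread for every region, it recovered 100% of 200 planted changes of 1 on the log2 scale, with 10 false calls. Changes as small as those of the members were not planted, so the power to find them is not known. Summit pileups were solved from fold and p as MACS2 defines them, and came out whole within a relative error of 1e-04 for 100% of narrow peaks. Motifs were searched with pysam 0.24.0 within 50 bp of summits. Some sequences are not reported here. Named genes were all 10 members, and from each list those with the highest p-JUN fold in soft replicate 1 among genes called in all 4 libraries, with likeness counted over the 14 lists. Replicate numbers did not pair the samples, and the alternatives are given in the closing section.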

Additional observations from a re-analysis of the deposited data

How the results depend on the processing

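Of 102 alternative values over 14 results, 87 kept their value within the replicate spread, the counting interval or 1.5 times the count, and 15 moved. The 87 include H3K27me3 counts that are 0 at every setting because no peak was listed in the windows. They also include counts of calls on 1 matrix alone, which cannot fall when a library is left out. The log2 ratio of H3K4me3 peaks in the windows, -0.22, became -0.46 with 10 kb on each side and -0.47 in gene bodies alone. The p-JUN regions called under 1 label alone were 2, both on labelled stiff. They became 1 with a -log10 q of at least 10, 1 with lists of equal length, 1 with 10 kb and 0 in gene bodies. They ranged from 2 to 4 when a library was left out, with 4 without either labelled stiff replicate. Without labelled stiff replicate 1 all 4 were on labelled stiff, and without labelled stiff replicate 2 they were 2 on soft and 2 on labelled stiff. Without soft replicate 2, and with 50 kb, 1 was on soft alone. The H3K4me3 count of 2, both on soft, became 1 with a -log10 q of at least 10 and 4 with lists of equal length. It ranged from 2 to 4 when a library was left out, with 4 without soft replicate 2. Lists of equal length gave 3 on soft and 1 on stiff, and leaving out soft replicate 2 gave 2 on soft and 2 on stiff. The H3K27ac count of 4, all on soft, became 7 with 50 kb and 1 in gene bodies. With lists of equal length it was 3 on soft and 1 on stiff. The share of member p-JUN peaks with AP-1 letters, 27.1% as a mean over libraries, was 55.4% anywhere in the peak, beside 52.3% of all peaks. The cause of these changes was not tested. The 2 promoters with H3K4me3 on soft alone became 1, CCL2, with a -log10 q of at least 10. This alternative and those for H3K27ac windows on soft alone were chosen after seeing the data. Leaving out a library moved the log2 ratio of peaks between -0.07 and 0.20 for p-JUN and between -0.32 and -0.12 for H3K4me3.

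Same-numbered replicates did not deviate together, with correlations across regions of 0.00 (p-JUN), -0.05 (H3K4me3) and 0.04 (H3K27me3). With a replicate block the log2 ratios were 0.06 for p-JUN and -0.22 for H3K4me3, and limma called 0 member regions, with 0 calls over all p-JUN and H3K4me3 regions and 5 over all H3K27me3 regions, where it called 0 without the block. No ratio or test exists for H3K27me3 in the windows, because no peak was listed there under any setting. The H3K4me3 calls at CXCL8 and CCL2 rest on 16 to 23 reads or fragments at the summit, and the stiff lists held peaks down to 11 and 13.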
